A study of Mus musculus with 36 samples.

Results

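The effect of β-hydroxybutyrate (βOHB) on RNA levels was examined in primary macrophages, in the 3 libraries of cells given βOHB and the 3 libraries of control cells, 6 of the 36 libraries of the series. The members were taken from the sample labels (cell type and treatment), and no measured value was used to choose them. The macrophages were differentiated from femoral bone marrow of male C57Bl/6 mice in L929-conditioned medium, which supplies the growth factor M-CSF. They received 5 mM βOHB, 5 mM butyrate or PBS as control for 6 h, and no inflammatory stimulus is named in the labels, so the inflammatory genes below were measured in resting cells. Each treatment has 3 libraries, and the labels do not say whether they came from separate mice or cultures, so the P values measure only the spread between these libraries, which may be technical. The rest of the series applied the same agents to primary adipocytes, myotubes and hepatocytes.

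βOHB is a ketone body that the liver makes from fatty acids during fasting and other tissues burn as fuel. It enters cells through monocarboxylate transporters and is returned to acetyl-CoA in mitochondria by BDH1, OXCT1 and ACAT1. Signaling roles have been proposed for it through the receptor HCAR2, through histone deacetylases (HDACs) and through the NLRP3 inflammasome, a complex that macrophages use to process interleukin-1β. Butyrate, a fatty acid made by gut bacteria, has the same carbon chain without the hydroxyl group and is an established HDAC inhibitor.

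The libraries held 19449491 to 23180421 estimated counts in controls and 19967628 to 22715899 under βOHB, so depth did not separate the groups. Levels are given as CPM, counts scaled to the library size after TMM normalization, which corrects for differences in RNA composition. All 18 macrophage marker genes were detected, and their summed level was 24620 to 24750 CPM in controls and 24030 to 24720 CPM under βOHB. Defining markers of other cells were at 0 in all 6 libraries for 2 of 11 neutrophil, 1 of 8 dendritic, 2 of 9 lymphocyte, 0 of 8 fibroblast and 5 of 8 erythroid and mast cell genes. The summed fibroblast genes ranged from 2581 to 2776 CPM in controls and from 2534 to 2888 CPM under βOHB, and Col1a1, a collagen chain, was at 1376 ± 46.9 and 1413 ± 98.4 CPM (SD, n = 3). The neutrophil list summed to 47.8 to 52.2 CPM in controls and 42.9 to 47.2 CPM under βOHB, nearly all of it Csf3r, the dendritic list to 1.78 to 1.97 and 1.35 to 1.88 CPM, and the lymphocyte list to 5.09 to 7.04 and 5.02 to 6.02 CPM. The part of other cells in the results below was not tested.

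βOHB left nearly every abundant transcript of the macrophages within narrow limits. For each gene a 95% interval of the log2 fold change, βOHB minus control, was computed with limma-voom on the 9 macrophage libraries, not adjusted for the number of genes, and the bound given here is the larger end of that interval as a fold change in either direction. Of the 8906 genes with a mean of at least 10 CPM, 8876 (99.7%) had a bound within 1.5-fold, 8531 (95.8%) within 1.25-fold and 7857 (88.2%) within 1.2-fold. The median bound was 1.12-fold and the median absolute log2 fold change 0.0407. Between 100 and 1000 CPM the median bound was 1.09-fold, and 96.6% of the genes were within 1.2-fold. Precision was lost at low levels, since from 1 to 10 CPM the median bound was 1.37-fold and 71.9% of genes were within 1.5-fold, and under 1 CPM the median bound was 2.79-fold. In bulk RNA, fewer cells of a type and less RNA per cell cannot be told apart.

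**Figure D1:**
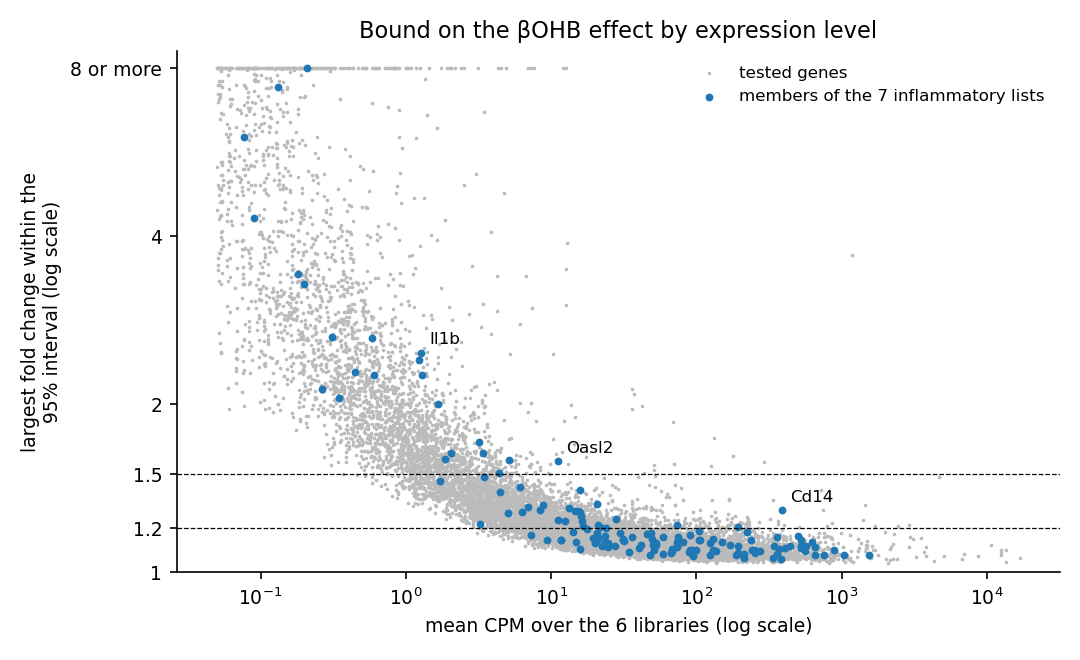
Bound on the βOHB effect (largest fold change within the 95% interval, log axis, drawn at 8 where it is larger) against mean CPM over the 6 libraries (log axis) for each tested gene of at least 0.05 CPM, with members of the 7 inflammatory lists in blue and dashed lines at 1.2-fold and 1.5-fold. Bounds narrow as the level rises, and 88.2% of genes of at least 10 CPM lie under the lower line.

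Replicate macrophage libraries lay close together. The biological coefficient of variation was 0.0462 in macrophages, against 0.0736 in hepatocytes, 0.0807 in adipocytes and 0.111 in myotubes. The median SD of log2 CPM between replicates, over the 8906 genes, was 0.0447 in control and 0.0657 in βOHB libraries. A fit of all 36 libraries takes 1 spread for all cell types, so its macrophage P values rest partly on the wider spread of the other cells. Results of both fits are therefore given.

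The most abundant nuclear transcripts of these resting macrophages illustrate the precision. Ctsd, which encodes the lysosomal protease cathepsin D, was at 17060, 16720 and 17010 CPM in the controls and 16620, 17000 and 16020 CPM under βOHB, with a bound of 1.06-fold. The groups overlapped. Of the other nuclear genes with the highest CPM, the bounds were 1.04-fold for Ctsb (cathepsin B), 1.06-fold for Eef1a1 (a translation elongation factor), 1.07-fold for Actb (β-actin) and Psap (the saposin precursor), 1.08-fold for Fth1 (ferritin heavy chain) and Spp1 (osteopontin), 1.09-fold for Lyz2 (lysozyme), 1.10-fold for Gpnmb and 1.12-fold for Ftl1 (ferritin light chain). The intervals of all 10 genes included 0.

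Only 4 genes of at least 10 CPM had an estimate beyond 1.5-fold, namely Rps12-ps3, Gm28661, Gm47766 and Srp54b. The intervals of all 4 included 0. Between 47.2% and 100% of the 31-base words of their transcripts also occurred in transcripts of other genes, so that reads could be assigned to either. Gm28661 shares the sequence of the mitochondrial gene mt-Co2, and its sum with the 2 genes it shares sequence with was 5801, 5444 and 5562 CPM in controls and 6189, 6169 and 5845 CPM under βOHB, higher in all βOHB libraries.

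In the edgeR quasi-likelihood fit of all 36 libraries, 4 of 15340 tested genes (0.0261%) had a P below 0.001 and 0 passed a false discovery rate (FDR) of 0.05, while 358 (2.33%) had an unadjusted P below 0.05. Limma-voom on the same libraries called 0 genes at the FDR and 7 at a P below 0.001, and DESeq2 called 2 and 7. Of the 4 genes, Tmc7 was higher (0.00652%) and Gm47204, Rpl14-ps1 and Doc2g were lower (0.0196%) under βOHB. The 4 became 0 when βOHB replicate 2 was left out and 8 when βOHB replicate 3 was. In the edgeR fit of the 9 macrophage libraries, 20 genes (0.13%) had a P below 0.001, of which 12 were higher (0.0782%) and 8 lower (0.0522%), 763 (4.97%) had an unadjusted P below 0.05, and 5 (0.0326%) passed the FDR, namely Gm47204, Slco4a1, Rpl14-ps1, C030014I23Rik and Gm14434. Limma-voom on the 9 libraries called 1 gene (0.00652%) at the FDR.

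Of those 5 genes, 4 share most of their sequence with other genes, measured as the share of their transcripts' 31-base words, on both strands, that occur in transcripts of another gene. The share was 98.5% for Gm47204, 71.3% for C030014I23Rik, 85.4% for Rpl14-ps1 and 100% for Gm14434, and 0% for Slco4a1. C030014I23Rik, Gm14434 and Rpl14 lie outside the rule for named genes, as do the named genes of the cholesterol list other than Hmgcs1, the 4 genes beyond 1.5-fold, mt-Rnr2, Tlr4, Tnf and H1f0, and most genes named below because their interval excluded 0 or their bound was the widest of a range, and all of these were chosen after their values were seen.

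Gm47204 and C030014I23Rik are long intergenic non-coding RNAs from opposite strands of the same stretch of GRCm38 chromosome 9. The annotated transcripts run from chr9:44477928-44479759 on the minus strand (1832 bases) and chr9:44477924-44479733 on the plus strand (1810 bases), and 1806 bases lie in both. The first 60 bases of the Gm47204 transcript (chr9:44479700-44479759, minus strand) are shown because they hold the only part that the partner lacks, with the 34 bases that lie inside the C030014I23Rik transcript in capitals.
Gm47204: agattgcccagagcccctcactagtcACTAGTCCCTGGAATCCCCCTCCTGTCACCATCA
The 26 bases in lower case are the whole of what the annotation gives to Gm47204 alone.

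Gm47204 was at 1.23, 1.78 and 2.02 CPM in controls and at 0 in all 3 βOHB libraries (110 and 0 counts), at least 36.0-fold lower with a floor of 3 counts over the βOHB libraries (edgeR FDR = 9.76e-05 on 9 libraries). C030014I23Rik moved the other way, from 0.775, 0.405 and 0.365 CPM to 3.04, 1.92 and 1.61 CPM (FDR = 0.0495 on 9 libraries). Neither gene overlapped between groups, but their sum was 2.19 ± 0.189 CPM in the controls and 2.19 ± 0.754 CPM in the βOHB libraries (mean ± SD, n = 3) and did overlap. Under butyrate the sum was 3.87 ± 0.156 CPM, with 3.46 CPM assigned to Gm47204.

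Rpl14-ps1 is a processed pseudogene (chr7:45324965-45325617, plus strand) of Rpl14, which encodes a protein of the large ribosomal subunit. Of 653 aligned bases, 649 (99.4%) were identical to the Rpl14 transcript. The first 120 coding bases of Rpl14 are shown because the pseudogene carries them without a difference.
Rpl14 and Rpl14-ps1: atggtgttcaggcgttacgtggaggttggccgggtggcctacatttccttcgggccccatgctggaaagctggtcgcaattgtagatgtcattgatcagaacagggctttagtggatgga
A read from this stretch fits both genes equally well.

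Rpl14-ps1 was at 3.55, 22.8 and 15.5 CPM in controls and at 0 in all βOHB libraries (894 and 0 counts), at least 291-fold lower with the same floor (edgeR FDR = 0.0495 on 9 libraries). Rpl14 itself was at 308.1, 279.2 and 305.7 CPM in controls and 296.7, 281.0 and 316.0 CPM under βOHB. The sum of both was 311.6 ± 9.58 and 297.9 ± 17.6 CPM (SD, n = 3), and the groups overlapped. Gm14434, which shares its sequence with a family of zinc finger genes, was at 6.78 CPM in controls and 3.57 CPM under βOHB on average, but summed with the 21 genes that hold at least 10% of its words it was at 116.5 ± 5.09 and 113.5 ± 3.44 CPM, which overlapped. Doc2g, which encodes a C2-domain protein, was at 0.280, 0.320 and 0.375 CPM in controls and 0, 0 and 0.216 CPM under βOHB (edgeR FDR = 1 on 36 libraries), and its sum with Gm49405, with which it shares 58.9% of its words, overlapped between groups.

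These calls also depended on single libraries. In the 9-library edgeR fit with 1 library left out, Gm47204 kept an FDR below 0.05 in all 6 fits, Rpl14-ps1 only without control replicate 1 (FDR = 0.00147, otherwise 0.0827 to 0.247), C030014I23Rik only without control replicate 1 (FDR = 0.0345) or βOHB replicate 3 (FDR = 0.0472), and Gm14434 in 0 of the 6 (0.0577 to 0.333).

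**Figure D2:**
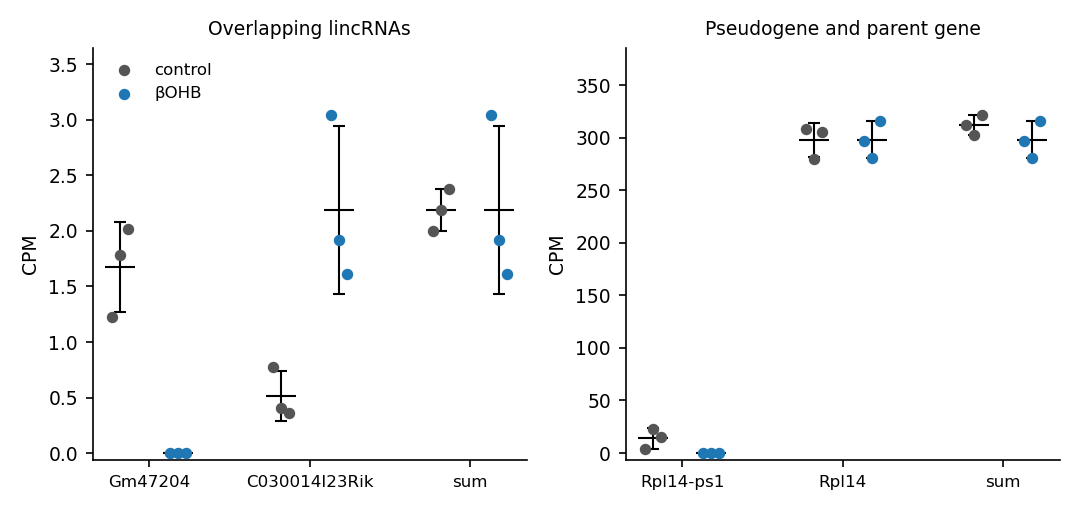
CPM in each control (grey) and βOHB (blue) library for 2 pairs of genes with shared sequence and for the sum of each pair, with mean ± SD (n = 3). Gm47204 and Rpl14-ps1 are at 0 in the 3 βOHB libraries, whereas both sums overlap between groups.

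Tmc7, which encodes a transmembrane channel-like protein, shares almost no sequence (0.0524% of its words) and was at 0.0424, 0 and 0.0865 CPM in controls and 0.175, 0.563 and 0.242 CPM under βOHB. All βOHB libraries were higher (edgeR FDR = 1 on 36 libraries). The level rests on 3 counts in the controls and 21 under βOHB, a ratio of 7.18 with an exact binomial interval of 2.14 to 37.6 that covers counting error only. Under butyrate Tmc7 was at 0.609, 0.936 and 0.592 CPM.

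In the 9-library edgeR fit Slco4a1 had the smallest P value among genes of at least 10 CPM. It encodes an organic anion transporter that carries thyroid hormone and prostaglandins, and it lies on the plus strand at chr2:180456245-180474867. The control libraries were at 13.1, 14.0 and 15.1 CPM and the βOHB libraries at 20.0, 20.1 and 21.5 CPM, and the log2 fold change was 0.55 (interval 0.41 to 0.69). Every βOHB library was above every control (edgeR FDR = 0.00531 on 9 libraries and 1 on 36). Without control replicate 2 the FDR of the 9-library fit was 0.0502, and without any of the other 5 libraries it was 0.00914 to 0.0345.

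The other leading genes of at least 10 CPM, taken as the 3 higher and 3 lower of smallest P in the 9-library fit whose groups did not overlap, had estimates of at most 1.35-fold in either direction. Hmox1, the heme-degrading enzyme of the antioxidant response, was at 768, 820 and 795 CPM in controls and 898, 959 and 918 CPM under βOHB (log2 fold change 0.22, interval 0.15 to 0.29, edgeR FDR = 0.0798 on 9 libraries). Hist1h2ap, a replication-dependent histone gene, was at 47.4, 38.1 and 45.8 CPM and 57.8, 63.8 and 55.5 CPM (0.43, interval 0.25 to 0.61, FDR = 0.0503). Its reads are shared with other histone genes (93.4% of its words), yet the sum with the 32 genes that share at least 10% of them was also higher in every βOHB library, at 121.3, 113.6 and 122.8 CPM against 134.2, 139.1 and 131.7 CPM.

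Of the lower genes, Plau, the urokinase-type plasminogen activator, was at 111.5, 109.7 and 109.2 CPM in controls and 95.2, 89.8 and 94.5 CPM under βOHB (−0.24, interval −0.32 to −0.17, FDR = 0.0503). Pdgfb, a growth factor for mesenchymal cells, was at 46.8, 45.8 and 47.4 CPM and 41.3, 41.8 and 37.9 CPM (−0.21, interval −0.31 to −0.11, FDR = 0.734). Prpsap2, a partner of the enzyme that makes phosphoribosyl pyrophosphate, was at 29.0, 28.8 and 28.4 CPM and 24.8, 25.5 and 24.8 CPM (−0.20, interval −0.28 to −0.12, FDR = 0.752). These genes did not overlap between groups, as did 1480 (12.2%) of the 12149 genes of at least 1 CPM (5.98% all higher, 6.21% all lower), and they were chosen for it. All 5 had an FDR above 0.05 in both edgeR fits.

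**Figure D3:**
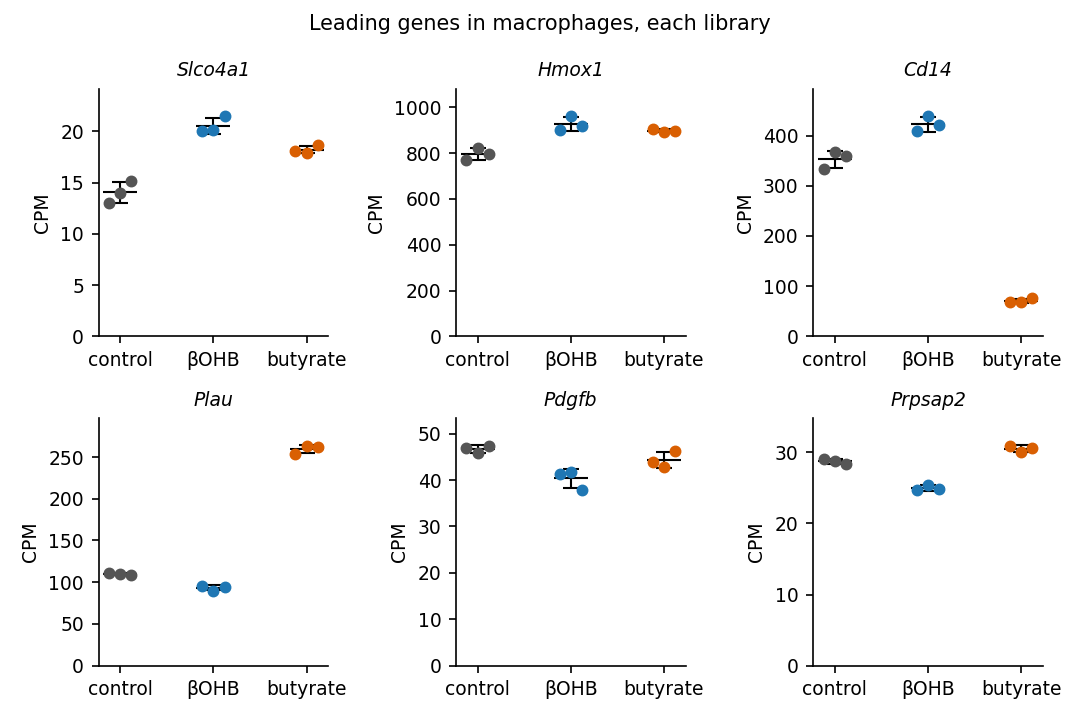
CPM in each control, βOHB and butyrate library of the macrophages for 6 genes, with mean ± SD (n = 3) and axes that start at 0. Slco4a1, Hmox1 and Cd14 are higher and Plau, Pdgfb and Prpsap2 lower in all βOHB than in all control libraries, and butyrate lies on the other side of the controls for Cd14, Plau and Prpsap2.

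In the list of cholesterol synthesis, small differences lay mostly in 1 direction, and none passed the test. The list holds the enzymes from acetoacetyl-CoA to cholesterol, the regulators Insig1 and Srebf2, and genes for transport such as Stard4, most of which are targets of the transcription factor SREBP2. All 21 genes were tested and 0 had a P below 0.001 or passed the FDR in the 36-library edgeR fit. In 13 of 21 all βOHB libraries were below all controls, against 6.21% of all genes of at least 1 CPM, and in 0 they were all above (5.98% of all genes). The interval lay below 0 in 10, against 3.11% of all genes, and the median log2 fold change was −0.11, ranging from −0.16 to 0.08. The list was chosen with results of these data known, and its genes are regulated together, so the counts are a description.

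Insig1, which retains the SREBP complex in the endoplasmic reticulum, was at 107.9, 112.6 and 116.6 CPM in controls and 103.7, 98.1 and 99.6 CPM under βOHB (−0.16, interval −0.25 to −0.07). Hmgcs1, which makes HMG-CoA in the cytosol, was at 188.8, 187.2 and 194.0 CPM and 177.8, 163.2 and 178.8 CPM (−0.13, interval −0.23 to −0.04). Fdps, the farnesyl diphosphate synthase, was at 69.3, 64.9 and 63.6 CPM and 60.2, 59.4 and 59.7 CPM (−0.14, interval −0.23 to −0.05). None of these 3 genes overlapped between groups. The other intervals below 0 included those of Lss, Cyp51, Msmo1, Hsd17b7 and Stard4. The summed level of the list was 1770 to 1779 CPM in controls and 1614 to 1689 CPM under βOHB, and 20 of 21 genes had a bound within 1.2-fold. With limma-voom on all 36 libraries, 1 interval lay below 0.

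**Figure D4:**
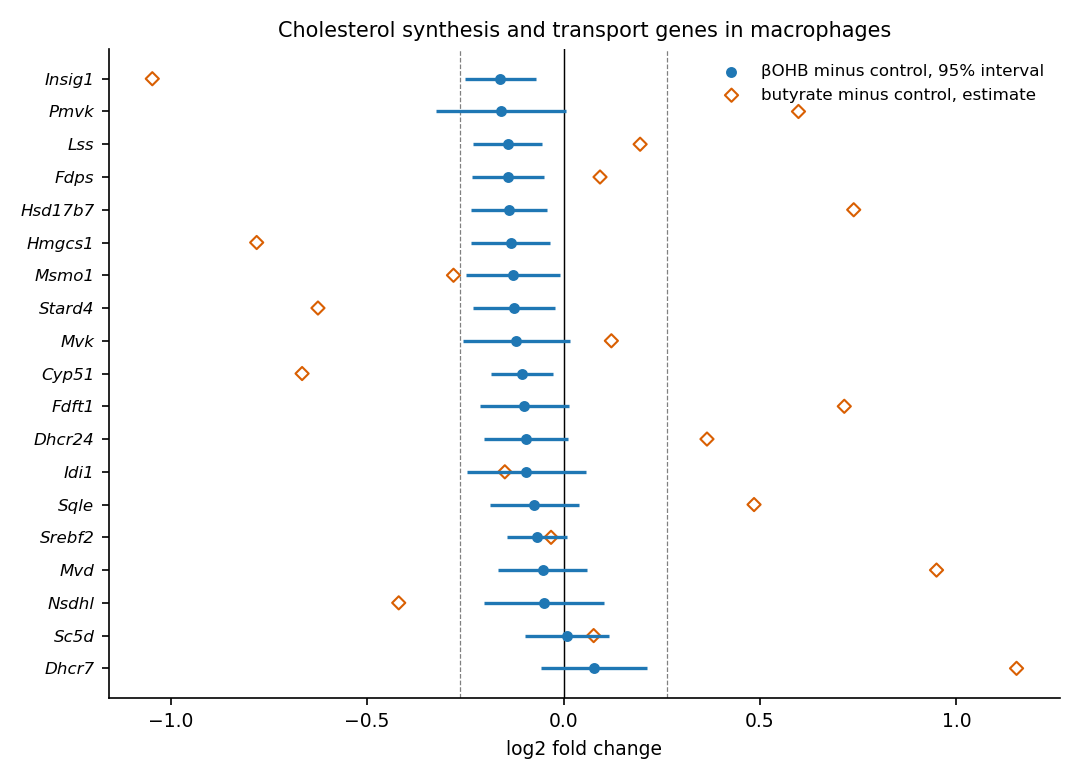
Log2 fold change of 19 of the 21 genes of the cholesterol list, βOHB minus control (blue, 95% interval of limma-voom on 9 libraries), beside the edgeR estimate of butyrate minus control (open diamonds), with dashed lines at 1.2-fold. The βOHB estimates lie between −0.16 and 0.08, and 8 of the 19 intervals lie below 0.

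The promoters of Insig1 and Hmgcs1 are shown as examples of the group, as the 250 bases before the RefSeq start in GRCm38.p6. Motifs were searched on both strands, and matches are in capitals, namely the GC box (GGGCGG), the CCAAT box (CCAAT), the E-box (CACGTG) and a sterol element (TCACNCCAC).
Insig1, chr5:28071162-28071411, plus strand: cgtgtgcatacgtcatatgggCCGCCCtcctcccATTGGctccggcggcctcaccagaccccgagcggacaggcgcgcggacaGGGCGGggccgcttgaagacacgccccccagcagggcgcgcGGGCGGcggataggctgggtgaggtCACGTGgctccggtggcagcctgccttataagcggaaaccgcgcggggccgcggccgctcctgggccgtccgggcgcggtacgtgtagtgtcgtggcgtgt
Hmgcs1, chr13:119690101-119690350, plus strand: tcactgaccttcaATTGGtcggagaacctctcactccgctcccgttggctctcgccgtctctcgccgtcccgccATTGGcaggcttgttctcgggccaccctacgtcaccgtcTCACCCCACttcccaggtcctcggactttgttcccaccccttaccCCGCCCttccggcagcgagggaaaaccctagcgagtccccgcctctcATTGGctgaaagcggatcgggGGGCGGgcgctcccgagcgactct
The Insig1 window holds 3 GC boxes, a CCAAT box and an E-box, and the Hmgcs1 window 2 GC boxes, 3 CCAAT boxes and a sterol element that begins 137 bases before the start. Promoters of 14 of the 21 genes were matched. The CCAAT box was in 14 of them (33.8% of 32851 promoters), the GC box in 13 (32.7%), the E-box in 4 (6.02%), the sterol element in 1 (1.05%) and the TATA box (TATAAA) in 0 (7.59%). A gene was counted if any of its listed promoters held the motif, whereas the percentages are of single promoters, so the 2 are not like for like. The matches are descriptions of these letters.

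Genes for the handling of βOHB itself were expressed and differed little. Slc16a1 (MCT1), the main ketone transporter, was at 28.6, 25.4 and 26.9 CPM in controls and 26.0, 24.0 and 27.5 CPM under βOHB, with a bound of 1.15-fold. Oxct1, which commits ketone bodies to oxidation, was at 273.5, 277.1 and 275.8 CPM and 272.5, 257.0 and 275.2 CPM, with a bound of 1.09-fold. Both genes overlapped between groups. The bounds of the chaperones Bsg and Emb were 1.08-fold and 1.13-fold, those of Slc16a7 (MCT2) and Slc16a3 (MCT4) 1.15-fold and 1.2-fold, and that of Bdh1, which oxidizes βOHB to acetoacetate, 1.30-fold.

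Slc16a6 (MCT7), a transporter for ketone export, was at 24.8, 22.1 and 23.7 CPM in controls and 20.7, 21.3 and 19.3 CPM under βOHB (−0.21, interval −0.34 to −0.08). Acat1, the thiolase of ketone use, was at 27.9, 26.3 and 27.7 CPM and 24.8, 24.7 and 25.5 CPM (−0.13, interval −0.24 to −0.02). Both were lower in all βOHB libraries, and their edgeR FDR on 9 libraries was 0.983. Over the 9 genes of ketone use and synthesis 3 were lower in all βOHB libraries and 0 higher.

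The receptors through which βOHB and related fatty acids are thought to signal were low, and their bounds correspondingly wide. Hcar2 was at 1.44, 1.46 and 1.77 CPM in controls and 1.44, 2.02 and 0.774 CPM under βOHB, with a bound of 1.92-fold. Gpr84, a receptor for medium-chain fatty acids, was at 2.88, 3.07 and 3.20 CPM and 3.23, 3.80 and 2.47 CPM, with a bound of 1.33-fold. The groups overlapped for both genes. Hcar1, Ffar2 and Ffar4 had means below 0.2 CPM, and Ffar3 was at 0.

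Genes proposed as targets of βOHB through HDAC inhibition or otherwise had no difference that passed. Foxo3, a stress-response transcription factor, was at 111.7, 111.6 and 111.2 CPM in controls and 112.4, 114.9 and 109.2 CPM under βOHB, with a bound of 1.05-fold, and the groups overlapped. The bounds were 1.09-fold for Sod2 and Hk2, 1.11-fold for Foxo1, 1.15-fold for Cat, under 1.2-fold for Foxo4, 1.23-fold for the metallothionein Mt2, 1.28-fold for Mt1 and 1.58-fold for Bdnf. H1f0, a linker histone gene that HDAC inhibitors induce, had a bound of 1.08-fold under βOHB, beside a log2 fold change of 3.91 under butyrate.

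The inflammasome genes did not differ beyond these limits. Nlrp3, the sensor that βOHB has been proposed to inhibit, was at 21.7, 23.4 and 23.6 CPM in controls and 23.4, 24.7 and 23.7 CPM under βOHB (0.07, interval −0.05 to 0.18, bound 1.14-fold). Casp1, the protease that cleaves pro-interleukin-1β, was at 48.2, 51.6 and 53.6 CPM and 51.8, 49.9 and 50.7 CPM, with a bound of 1.10-fold. Both genes overlapped between groups. The bounds were 1.09-fold for Gsdmd, the pore-forming gasdermin, and 1.22-fold for Pycard, the adaptor ASC.

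The cytokines that the inflammasome processes were low in these resting cells. Il1b was at 0.763, 1.21 and 1.21 CPM in controls and 1.09, 1.50 and 1.89 CPM under βOHB (0.48, interval −0.35 to 1.31), which leaves a bound of 2.47-fold. Il18 was at 4.45, 5.24 and 4.76 CPM and 4.32, 3.28 and 4.35 CPM (−0.27, interval −0.59 to 0.05), a bound of 1.51-fold. All Il18 levels under βOHB were below the controls, whereas those of Il1b overlapped. Of the 15 inflammasome genes tested, 10 were within 1.2-fold and 13 within 1.5-fold, beside 67.6% and 92.2% of all genes of at least 1 CPM. The interval excluded 0 in 0 of the 15, beside 6.15% of all genes of at least 1 CPM.

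**Figure D5:**
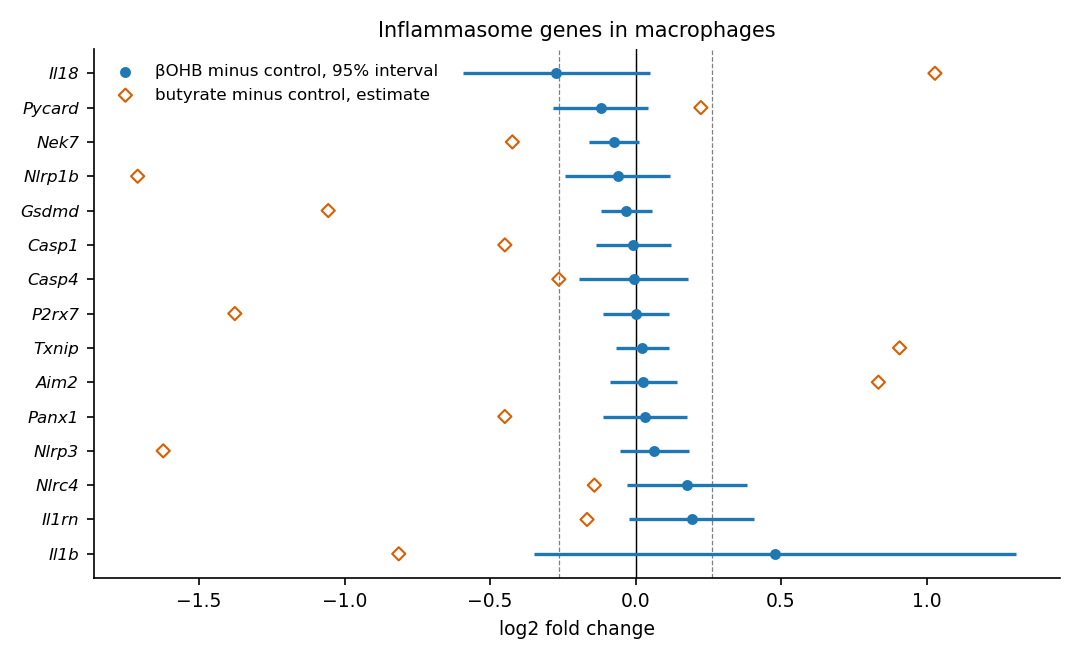
Log2 fold change of the 15 inflammasome genes tested, βOHB minus control (blue, 95% interval of limma-voom on 9 libraries), beside the edgeR estimate of butyrate minus control (open diamonds), with dashed lines at 1.2-fold. All 15 βOHB intervals include 0, and Il1b has the widest with −0.35 to 1.31.

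Over the 7 inflammatory lists (inflammasome, mediators, chemokines and receptors, Toll-like receptors and NF-κB, interferon response, alternative activation, and phagocyte receptors and complement), 155 of 169 genes were tested and 0 passed in the 36-library fit. Of all tested genes, 0.0261% had a P below 0.001 in that fit. Among the 118 inflammatory genes of at least 10 CPM, the median bound was 1.13-fold, 99 were within 1.2-fold, 109 within 1.25-fold and 117 within 1.5-fold. Of all genes of that level, 88.2%, 95.8% and 99.7% were. Oasl2, an interferon-induced gene, had the widest bound of the 118, 1.58-fold, and with limma-voom on all 36 libraries the widest was 2.51-fold. The interval lay above 0 in 8 and below 0 in 5 of the 118. Of the 22 inflammatory genes from 1 to 10 CPM, 12 were within 1.5-fold, beside 71.9% of all genes of that level. The 15 under 1 CPM had a median bound of 3.29-fold, beside 2.79-fold for all genes of that level.

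Cd14, the co-receptor of TLR4 for endotoxin, was the one inflammatory gene with a P below 0.001 in the 9-library fit. It was at 333, 366 and 359 CPM in controls and 409, 438 and 421 CPM under βOHB (0.26, interval 0.15 to 0.37, edgeR FDR = 0.126 on 9 libraries and 1 on 36). All βOHB libraries were above all controls. Tlr4 itself had a bound of 1.13-fold and Tnf, a cytokine of endotoxin responses, one of 1.28-fold.

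The other inflammatory genes of at least 10 CPM with an interval above 0 were Osm (0.19), Ccr1 (0.23), Irak4 (0.12), Rela (0.15), Pparg (0.12), C5ar1 (0.15) and Clec4d (0.10), given as log2 fold changes. Rela, the p65 subunit of NF-κB, was at 98.5, 99.1 and 100.7 CPM in controls and 109.6, 115.1 and 105.3 CPM under βOHB. Those with an interval below 0 included Lif (−0.20), Oas1a (−0.14), C1qa (−0.08) and Ms4a6c (−0.11). An interval that excludes 0 was found in 747 (6.15%) of the 12149 genes of at least 1 CPM, 369 above and 378 below, and in 550 (6.18%) of the 8906 genes of at least 10 CPM, and the 13 of 118 stand beside those shares.

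The bounds of the remaining lists varied, beside 67.6% of all genes of at least 1 CPM within 1.2-fold. All 26 lysosome genes had a bound of at most 1.14-fold, all 23 genes of the TCA cycle and all 16 of glycolysis were within 1.2-fold, and 22 of 25 genes of oxidative phosphorylation were. Wider bounds were found among early response genes (15 of 20 within 1.2-fold, widest 1.64-fold), the antioxidant list (15 of 19, widest 1.49-fold), and the HDAC list (10 of 15, widest 1.34-fold). All βOHB libraries were below all controls in 5 of 16 proliferation genes and above them in 0, below them in 5 of 25 genes of oxidative phosphorylation and above them in 1, and above them in 4 of 16 glycolysis genes and below them in 0, against 6.21% and 5.98% of all genes. Pkm, the pyruvate kinase of glycolysis, had a log2 fold change of 0.09 (interval 0.03 to 0.14) and Ogdh, of the TCA cycle, 0.11 (0.03 to 0.19). In the TCA list 1 interval lay above 0 and 1 below, in oxidative phosphorylation 0 above and 1 below, and in glycolysis 1 above and 0 below. In the antioxidant list Hmox1, Slc7a11 (the cystine transporter, 0.17) and Gclc (of glutathione synthesis, 0.09) had intervals above 0 and Gpx1 (a glutathione peroxidase, −0.12) below. Among early response genes the intervals of Fosl2 (0.13), Jun (0.12) and Dusp1 (0.10) lay above 0. In all lists together, 0 of 424 tested genes passed in the 36-library fit (0.0261% of all genes had a P below 0.001) and 2, Cd14 and Hmox1, had a P below 0.001 in the 9-library fit (0.13% of all genes).

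The RNA of the mitochondrial genome differed between libraries as well. The 15 of its genes that were counted here summed to 36230, 35540 and 36420 CPM in controls and 39400, 41210 and 36770 CPM under βOHB. All βOHB sums were higher, with βOHB replicate 3 close to the controls. The ribosomal RNA mt-Rnr2 was at 720, 655 and 682 CPM and 810, 816 and 797 CPM (0.24, interval 0.10 to 0.37, edgeR FDR = 0.696 on 9 libraries).

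βOHB and butyrate were compared directly, at 5 mM and 6 h, as the 1 pair of related compounds. The 2 agents separated widely, with 9919 of 15340 genes (64.7%) at an FDR below 0.05 in the edgeR fit of 36 libraries, 5037 higher (32.8%) and 4882 lower (31.8%) under βOHB. Scaling by library totals alone lowered the median log2 difference of all genes by 0.21 and split the calls into 3293 higher and 6701 lower (32.9% higher instead of 50.8%). Against the shared controls, butyrate raised 31.9% and lowered 33.2% of the tested genes at the same FDR (65% in all), beside 0% for βOHB. The median absolute log2 fold change of genes of at least 10 CPM was 0.0407 for βOHB and 0.371 for butyrate, and 32 genes (0.359%) against 5552 (62.3%) had an estimate beyond 1.2-fold. For the 118 inflammatory genes of at least 10 CPM the medians were 0.0417 and 0.619, butyrate changed 90 of them at the FDR, and 40 of the 118 had a butyrate estimate beyond 2-fold, beside 11.6% of all genes of at least 10 CPM.

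Single genes show the distance. Cd14 was at 67.8, 68.4 and 75.9 CPM under butyrate, so that βOHB was higher by 2.58 on the log2 scale (edgeR FDR = 2.31e-16). Nlrp3 was at 7.43 CPM on average under butyrate, lower than under βOHB by 1.69 (FDR = 7.68e-10). Plau was at 254.2, 263.5 and 261.8 CPM under butyrate, and βOHB differed by −1.48 (FDR = 2.97e-11). For Cd14 and Plau the butyrate libraries lay on the opposite side of the controls from the βOHB libraries.

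For 3 of the leading genes the difference between the agents did not pass the edgeR FDR on 36 libraries. Hmox1 was at 905, 893 and 896 CPM under butyrate, and βOHB minus butyrate was 0.01 with an interval of −0.07 to 0.08 (limma-voom on 9 libraries, edgeR FDR = 0.904 on 36). Slco4a1 was at 18.1, 17.9 and 18.6 CPM under butyrate, below all βOHB and above all control libraries, and the difference was 0.14 with an interval of 0.0048 to 0.27, which excluded 0, while the edgeR FDR on 36 libraries was 0.446. For Pdgfb the interval, −0.27 to −0.07, also excluded 0, and the edgeR FDR on 36 libraries was 0.172.

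The response to βOHB was also set against that of myotubes, where the spread between libraries was the widest of the series. The macrophage effect minus the myotube effect passed an FDR of 0.05 for 253 genes (1.65%), 249 higher (1.62%) and 4 lower (0.0261%) in macrophages. All 11 listed immune genes that are lower under βOHB in the myotubes of this series were among them, but they were chosen for that fall, so their passing is no independent finding. In macrophages themselves these 11 genes had bounds within 1.5-fold, 9 of them within 1.2-fold, and the intervals that excluded 0 included those of Ccr1 (0.23) and Ms4a6c (−0.11).

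Their levels in the cells differ widely, and how far macrophages among the myotube cells enter this comparison was not tested. C1qc, a chain of complement C1q, was at 761.5 CPM in control and 747.8 CPM in βOHB macrophages (bound 1.07-fold), and at 34.7 and 8.64 CPM in control and βOHB myotubes. Sirpa, the receptor for CD47, was at 1542 and 1518 CPM in macrophages and 47.6 and 27.1 CPM in myotubes. The count of 253 fell to 72 without myotube control replicate 1, 122 without control replicate 2, 133 without myotube βOHB replicate 1 and 83 without βOHB replicate 2, and rose to 404 without myotube control replicate 3. Between 7 and 11 of the 11 immune genes passed in these fits.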

How the data were processed

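Total RNA of primary mouse cells was sequenced, and the estimated counts per gene deposited by the authors were made with Salmon 1.2.1 on GRCm38.p6 transcripts, per the labels and the study's methods. The table holds 54347 genes and 36 libraries, and 0 columns were left out. In the 6 libraries compared, 53.1% of the values above 0 were whole, and counts were rounded. Library sizes were scaled by TMM, CPM values carry no prior count, and the tests took the 15340 genes that exceeded 1 CPM in 6 or more libraries.

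Groups and replicate numbers came from the labels. The main test was the edgeR 4.0.16 quasi-likelihood test on all 36 libraries with 1 term per cell type and treatment (R 4.3.3), called at a P below 0.001 or an FDR (Benjamini-Hochberg) below 0.05. The same test was run on the 9 macrophage libraries, and 95% intervals came from limma-voom 3.58.1 on those 9. DESeq2 1.42.0 was an alternative. Exact permutation of 3 against 3 libraries gives a P of 0.1 at the least, so no gene was tested outside these fits. Among the 6 compared libraries, no pair of replicates was a repeat of 1 library (chi-square per gene 2.61 to 7.64). Intervals for counts cover counting error only.

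Named genes were those at a P below 0.001 or at the FDR in the main test, the 3 higher and 3 lower genes of at least 10 CPM with the smallest P in the 9-library fit and no overlap, the 10 nuclear genes of highest CPM, the tested members of the ketone, inflammasome, proposed target and myotube immune lists, and from other lists the 2 members of highest CPM and the member of widest bound. Some genes under this rule are not reported here. The members and lists were chosen with earlier results of these data known. Alternatives were other tools, scalings and filters, the replicate number as a block and each library left out. Shared 31-base words were counted over GENCODE M21 transcripts of GRCm38, in Python 3.11.15. Biopython 1.88 aligned transcripts and matplotlib 3.10.9 drew the figures.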

Additional observations from a re-analysis of the deposited data

Results flagged for a closer look

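Genes are listed here because their response to βOHB differed between macrophages and myotubes, by the edgeR test of that difference on 36 libraries (253 genes at an FDR below 0.05, of which those that the text or its lists name and that are reported here are given). Values are the macrophage minus the myotube effect of βOHB on the log2 scale. For receptors and adhesion molecules of phagocytes the difference was 1.98 for Tlr13, 1.73 for Fcgr3, 2.07 for Stab1, 1.33 for Cd93, 3.50 for Clec4a1, 1.63 for C3ar1, 1.83 for Ms4a6c, 2.13 for Ccr1, 1.44 for Cd14, 2.59 for Csf3r, 0.79 for Sirpa and 0.68 for P2rx7. For kinases and transcription factors of immune signaling it was 1.98 for Btk, 1.13 for Syk, 1.83 for Irf8 and 1.21 for Irf5. For inflammasome genes it was 1.82 for Casp1, 2.19 for Nlrp1b, 2.27 for Aim2, 1.78 for Nlrc4 and 1.42 for Il1rn, the interleukin-1 receptor antagonist. For secreted and lysosomal proteins it was 1.98 for C1qc, 1.86 for C1qb, 1.59 for Cxcl16 and 1.82 for Ctss. The macrophage effect itself had a bound of at most 1.39-fold (Clec4a1) in each of these 25 genes. How far the number of macrophages among the myotube cells enters these values was not tested.

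Rpl14-ps1 (−14.32) and Gm47204 (−9.37) differed in the other direction, but they were at 0 in the macrophage βOHB libraries and these fitted values are no bounds. With 3 libraries a group, single libraries were not tested as outliers.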

How the results depend on the processing

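The counts of called genes were small and depended on the fit. At a P below 0.001, 4 genes passed in the 36-library edgeR fit, 7 with limma-voom and 7 with DESeq2 on the same libraries, 77 without a filter, 20 with edgeR on 9 libraries, 29 on 6, and 0 to 8 with 1 library left out. At the FDR these counts were 0, 0, 2, 35, 5, 10, and 0 to 1. The difference from myotubes passed for 158 genes with limma-voom, 580 without a filter, and 72 to 404 with 1 library left out. The following alternatives were chosen after the data were seen. The 5 FDR calls of the 9-library fit ranged from 1 to 5 with 1 library left out (1 without control replicate 2, 2 without βOHB replicate 1 or 2), and its 20 at a P below 0.001 from 13 (without control replicate 1) to 38 (without βOHB replicate 3). Of the genes called, Rpl14-ps1 kept an FDR below 0.05 in 1 of the 6 fits with a library left out and Gm14434 in 0. With limma-voom on 36 libraries, 1 interval of the cholesterol list lay below 0 instead of 10, and the widest bound of the inflammatory genes of at least 10 CPM was 2.51-fold instead of 1.58-fold. The causes were not tested.

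With the replicate number as a block in the 9 libraries, 34 genes had a P below 0.001 and 12 passed the FDR, among them Plau (edgeR FDR = 0.0175), Hmox1 (0.0175), Hist1h2ap (0.0138) and Cd14 (0.01), which did not pass without it. The labels give these samples only a shared number, and whether it marks a shared culture or batch was not tested. In their deviations from the group mean, control and βOHB libraries of the same number correlated at 0.068, 0.0495 and 0.0387. Each library correlated best with its own number.

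The counts of genes of at least 10 CPM within 1.5-fold ranged from 8792 to 8880 and within 1.2-fold from 7058 to 8092 over all alternatives, and the count of βOHB against butyrate from 9291 to 10315. Of the 131 named genes, 23 had an interval that excluded 0, and these 23 had the same sign in every alternative that tested them (18 with a minimum of 10 CPM). The interval still excluded 0 in 12 of them with limma-voom on 36 libraries. A prior count of 0.5 was not run, since levels are printed without a prior. Under 1 CPM, depth limits what can be shown.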

Other observations

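Of 18 genes for lipid efflux and storage of at least 1 CPM, 3 had an interval above 0 and 1 below (3.04% and 3.11% of all genes of that level). Of the 19 genes listed, 0 passed in either edgeR fit. The examples below were chosen after their values were seen. Lpl, the lipoprotein lipase that macrophages secrete, was at 1287 CPM in controls and 1354 CPM under βOHB on average (log2 fold change 0.07, interval 0.00 to 0.14). Nr1h3, the sterol sensor LXRα, was at 12.0 and 13.7 CPM (0.18, interval 0.02 to 0.34), and Fabp5, a fatty acid binding protein, at 535.9 and 480.8 CPM (−0.16, interval −0.27 to −0.05).

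Some genes with a P below 0.001 in the 9-library edgeR fit belong to none of the lists. Dio2, the deiodinase that activates thyroid hormone, was at 27.2, 30.1 and 29.2 CPM in controls and 34.2, 36.1 and 34.6 CPM under βOHB (0.28, interval 0.16 to 0.40, FDR = 0.453). Kat2a, a histone acetyltransferase, was at 39.8, 39.9 and 42.2 CPM and 45.8, 50.2 and 46.9 CPM (0.23, interval 0.13 to 0.32, FDR = 0.453). Lpin2, a phosphatidate phosphatase, was at 106.8, 103.8 and 106.6 CPM and 117.4, 116.7 and 118.4 CPM (0.15, interval 0.09 to 0.21, FDR = 0.752). All βOHB libraries lay above all controls for the 3 genes. These genes were chosen after their values were seen.

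In 2 further groups of sequence-sharing genes the sums did not overlap, and the groups were chosen for that. Hnrnpa1 with the 8 genes that share at least 10% of its 31-base words was at 341.2, 334.4 and 348.3 CPM in controls and 314.3, 287.9 and 308.6 CPM under βOHB. Rps12-ps3 with its 19 such genes, among them the ribosomal protein gene Rps12, was at 258.8, 242.8 and 266.2 CPM and 217.6, 214.3 and 236.8 CPM. All βOHB sums were below all control sums, and these sums were not tested. Among genes of at least 1 CPM, 6.21% had all βOHB libraries below all controls. Hnrnpa1 alone had an edgeR FDR of 0.752 on 9 libraries.

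The distribution of P values over the 15340 genes also differed between fits. P values below 0.1 were held by 5.5% of genes in the 36-library edgeR fit, 9.94% in the 9-library edgeR fit and 11.5% with limma-voom on 9 libraries, and P values above 0.9 by 15.9%, 13.2% and 12.3%.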
